A study of Sus scrofa with 6 samples.

Results

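The BCL2 family decides whether the outer membrane of the mitochondrion stays intact, and 10 of its genes were read from RNA-seq of porcine embryonic fibroblasts (PEFs) and of the porcine induced pluripotent stem cells (piPSCs) made from them. The members were BCL2, BCL2L1, MCL1 and BCL2A1 (pro-survival), BAX and BAK1 (effectors), and BID, BIK, BBC3 and BCL2L11 (BH3-only), and they were found by gene name in a table of 18007 genes. Of the 10, 7 were listed by symbol, and BBC3 was listed by identifier only and named from the reference, so 8 were found. BCL2 and BIK were not listed under their own names and are not analysed here. Of the 8 genes found, 7 reached a mean of 0.5 FPKM (fragments per kilobase of gene, scaled to library depth) and entered the test, and BCL2A1 did not.

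The PEF group held the lines PEF5, PEF7 and PEF8, grown from ear tips of embryos at day 90. The embryos came from a cross between a Longwhite boar (Large White in the study's text) and a Meishan sow. The piPSC group held piPSC5, piPSC7 and piPSC8, each derived from the PEF line of its number with lentiviral Oct4, Sox2, Klf4 and cMyc (OSKM) under a doxycycline-dependent promoter. The piPSCs were kept with doxycycline on mouse feeder cells, so the exogenous factors were part of their state, and fragments from feeder cells cannot be told apart in values per gene. The study's text names LF2i medium for obtaining the colonies. Effects of culture conditions cannot be told apart from those of reprogramming in this design. Each line gave 1 library of 11010629 to 17836510 fragments, and whether each PEF line came from its own embryo is not given in the sources used here, so p-values measure the spread between these lines.

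BCL2 family proteins meet at the mitochondrion. The effectors BAX and BAK1 form pores that let cytochrome c out into the cytosol, where it drives caspase activation. The pro-survival proteins hold the effectors and the BH3-only proteins in a surface groove, and the BH3-only proteins are produced or activated under stress and tip this binding towards death. The part they share is the BH3 segment, a short helix that fits the groove.

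The BH3-coding stretches are shown because this helix is what ties genes of opposite roles into one family. The coding sequences of members in the RefSeq annotation of Sscrofa11.1 were searched, on the coding strand and in frame, for the BH3 core, taken as a leucine codon, any 3 codons, a glycine or alanine codon and an aspartate codon. Capitals mark the 18 bases of this core, with 9 bases on each side in lower case, 5′ to 3′ on the coding strand.
MCL1: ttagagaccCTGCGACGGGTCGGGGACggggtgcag
BCL2L1: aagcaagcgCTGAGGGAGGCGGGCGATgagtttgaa
BCL2: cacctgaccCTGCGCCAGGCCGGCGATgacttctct
BAX: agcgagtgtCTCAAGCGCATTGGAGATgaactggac
BAK1: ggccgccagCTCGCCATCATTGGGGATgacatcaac
BBC3: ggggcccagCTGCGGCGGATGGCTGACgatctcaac
BCL2L11: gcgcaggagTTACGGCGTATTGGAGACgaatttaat

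These stretches lie in coding exons at chr4:98562864-98562899 (MCL1, plus strand), chr17:35413747-35413782 (BCL2L1, minus), chr1:158339021-158339056 (BCL2, plus), chr6:54223255-54223290 (BAX, plus), chr7:29811739-29811774 (BAK1, minus), chr6:53040936-53040971 (BBC3, minus) and chr3:45174080-45174115 (BCL2L11, minus). Each of these 7 genes held 1 match, and BBC3 matched through alanine where the other 6 matched through glycine. BCL2A1 held no match. The core is a loose pattern, since 24.9% of 19615 coding transcripts, 1 per gene, held it at least once. The cores of BCL2 and BCL2L1 had the same base at 14 of 18 positions, the most of any pair of these 7 genes, and those of BCL2L1 and BAK1, BCL2L1 and BCL2L11, and BAK1 and BBC3 at 7 of 18, the fewest. No RefSeq entry for BIK was matched.

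Before the results, the groups were checked against markers. All 10 fibroblast markers were lower in piPSCs, with summed levels of 4492 to 6456 FPKM in the PEF libraries and 131 to 223 FPKM in the piPSC libraries. COL1A2, a fibrillar collagen chain, ran from 1414 to 2376 FPKM in PEFs and from 4.24 to 44.8 FPKM in piPSCs, and THY1, a fibroblast surface protein, from 73.7 to 253 FPKM and from 0.385 to 4.47 FPKM. Of 10 pluripotency markers, 6 were listed, and only SOX2 and LIN28B reached the minimum level. SOX2, a pluripotency factor, was at 3.01 FPKM in piPSC5, 2.49 FPKM in piPSC7 and 0.129 FPKM in piPSC8, and LIN28B, an RNA-binding protein of early cells, at 2.51, 0.281 and 8.90 FPKM. Both were higher in every piPSC library than in any PEF library, with log2 differences of 1.31 and 1.80 that did not pass limma's test (adjusted p = 0.0626 and 0.0667). SOX2 passed without line 8 (1.90, limma adjusted p = 0.00625) and without piPSC8 alone (limma adjusted p = 0.00233). LIN28B passed without piPSC7 (2.53, limma adjusted p = 0.00953). It did not pass without line 8 (1.07, limma adjusted p = 0.152) or without piPSC8 alone (1.06, limma adjusted p = 0.0975). Both genes passed with a pseudocount of 0.1 and with voom. Sox2 was also among the exogenous factors, and whether fragments of the exogenous factor fell on the SOX2 row was not tested. NANOG, SALL4, ESRRB and DPPA2 stayed under 0.1 FPKM in all 6 libraries. Summed over each list, 6 epithelial markers reached at most 1.14 FPKM in PEFs and 1.87 FPKM in piPSCs, 6 endothelial markers 9.13 and 1.15 FPKM, and the 8 listed leukocyte markers 23.3 and 3.59 FPKM. All lines are described as male, yet 4 Y-linked genes held 4190 fragments in PEF8 and 4915 in piPSC8 and at most 1 fragment in each library of lines 5 and 7. Results that differ in line 8 are therefore given with and without it.

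Of the 7 tested members, 3 were called by limma, which took both an adjusted p under 0.05 and a change of FPKM + 1 of 2-fold or more. BID was higher in piPSCs, and MCL1 and BCL2L1 were lower. Over all 12428 genes tested, 36.8% were called, 20.2% higher and 16.7% lower, so the count of members is near that background and is not by itself a result about the family. The median log2 fold change of the 7 was 0.19, beside 0.20 over all genes. The groups did not overlap for the same 3 members, 1 higher and 2 lower, where 64.1% of all genes had no overlap (37.3% higher and 26.8% lower). Without line 8, the 2 lines left gave 4 called members, the same 3 and BCL2L11, where 4260 of all 12428 genes were called. In bulk libraries, fewer cells of a type and less RNA per cell cannot be told apart, and this holds for each value below.

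**Figure D1:**
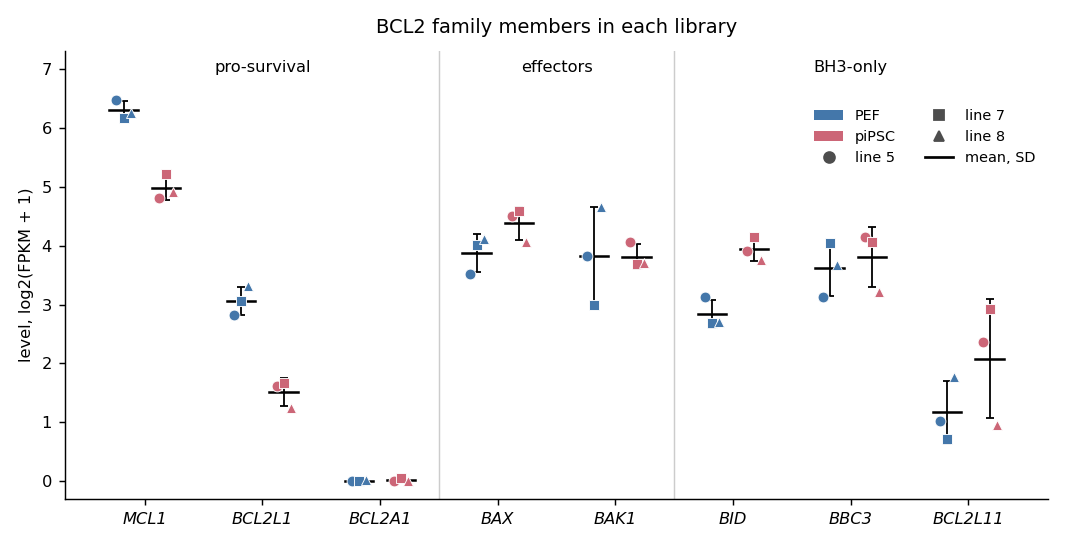
Levels of the 8 listed members in each of the 6 libraries, as log2(FPKM + 1) on the vertical axis, with genes grouped by role on the horizontal axis. Points are libraries (shape gives the line, colour the group), black bars are group means and whiskers SD over 3 lines. By FPKM, which depends on the gene length used, MCL1 sits above every other member in all 6 libraries. The groups of MCL1, BCL2L1 and BID stand apart, and BCL2A1 lies at 0.

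MCL1, a short-lived pro-survival protein that binds BAK1 and BCL2L11, had the highest FPKM of any member in every library. The PEF libraries held 87.9 (PEF5), 70.4 (PEF7) and 75.2 FPKM (PEF8), and the piPSC libraries 27.1 (piPSC5), 36.3 (piPSC7) and 29.0 FPKM (piPSC8). Every PEF library was above every piPSC library, and the spread within each group was small beside the gap. The mean was 77.8 ± 9.02 FPKM (SD, n = 3) in PEFs and 30.8 ± 4.85 FPKM in piPSCs, 2.53-fold lower. On the log2(FPKM + 1) scale the difference, piPSC minus PEF, was -1.32 (SE 0.17, 95% interval -1.72 to -0.91, limma adjusted p = 0.00144). The fragments behind these values ran from 7264 to 9990 in PEFs and from 2036 to 2749 in piPSCs, so counting error was small. The row of MCL1 (ENSSSCG00000039314) runs from 98527907 to 98568965 on chromosome 4 and begins at the gene ENSA on the same strand. The row of ENSA itself held 4.87 to 10.3 FPKM, on 440 to 1182 fragments. How shared reads were counted is not given in the sources used here, so the part of ENSA in the MCL1 row cannot be told. The counted length of the MCL1 row is 6374 bases, beside 3944 bases of MCL1 exons in RefSeq. For BAX these lengths are 3806 and 833 bases. BAX held 704 to 967 fragments in PEFs and 658 to 1235 in piPSCs. The rank of MCL1 above BAX therefore depends on the lengths used, and other lengths were not tested.

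BCL2L1 encodes BCL-XL, a pro-survival protein of the outer mitochondrial membrane, and showed the other fall. Levels were 6.11 (PEF5), 7.31 (PEF7) and 8.89 FPKM (PEF8) before reprogramming and 2.08 (piPSC5), 2.19 (piPSC7) and 1.36 FPKM (piPSC8) after it. The groups were again apart, and line 8 held both the highest PEF value and the lowest piPSC value. The mean was 7.44 ± 1.39 FPKM (SD, n = 3) in PEFs and 1.88 ± 0.453 FPKM in piPSCs, 3.97-fold lower. The log2 difference was -1.55 (SE 0.23, 95% interval -2.09 to -1.01, limma adjusted p = 0.0022). The values rest on 890 to 1099 fragments in PEFs and 122 to 255 in piPSCs. The row (ENSSSCG00000035357, chromosome 17 from 35315475 to 35415778, minus strand) also spans ID1 on the other strand. The library kit is not given as strand-specific, so reads of the overlap cannot be assigned, and the row of ID1 itself held 0 to 9 fragments a library.

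BCL2A1, a pro-survival gene best known from blood cells, was close to absent. It had 1 fragment in PEF8, 3 in piPSC7 and 0 in the other 4 libraries. The upper limit of a count of 0, 3 fragments, is 0.0285 to 0.0462 FPKM in these libraries, for counting error only. No fold is given, since both groups were at or under that floor, and no difference was detectable at this depth.

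The pro-survival gene BCL2 itself has no row, but the row listed as KDSR (chromosome 1 from 158288053 to 158518879, plus strand) spans both KDSR, an enzyme of sphingolipid synthesis, and BCL2 in RefSeq. It was at 6.04, 6.59 and 4.38 FPKM in PEF5, PEF7 and PEF8 and at 4.51, 4.12 and 5.81 FPKM in piPSC5, piPSC7 and piPSC8. The groups overlapped, and the log2 difference was -0.19 (95% interval -0.72 to 0.33, limma adjusted p = 0.483). How much of it is BCL2 cannot be told apart from KDSR. In the same way, the row listed as PABPN1, a poly(A)-binding protein, spans a RefSeq gene described as bcl-2-like protein 2 (BCL2L2), a further pro-survival gene that was not listed by name. It ran from 19.1 to 24.0 FPKM in PEFs and from 29.6 to 32.6 FPKM in piPSCs without overlap, with a log2 difference of 0.55 (SE 0.15, limma adjusted p = 0.0218) that did not reach 2-fold.

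The effectors did not pass the test. BAX, which moves from the cytosol into the mitochondrial membrane, was at 10.4 (PEF5), 15.2 (PEF7) and 16.2 FPKM (PEF8) in the fibroblasts and at 21.6 (piPSC5), 23.0 (piPSC7) and 15.7 FPKM (piPSC8) in the piPSCs. Lines 5 and 7 were higher as piPSCs and line 8 was level, so that piPSC8 fell between PEF7 and PEF8. The mean was 13.9 ± 3.11 FPKM (SD, n = 3) in PEFs and 20.1 ± 3.87 FPKM in piPSCs, and the log2 difference of 0.51 had a 95% interval of -0.05 to 1.06 (limma adjusted p = 0.11). The interval includes both no change and a 2-fold rise, and without line 8 the difference was 0.78 (limma adjusted p = 0.0592). The row of BAX (ENSSSCG00000003144, chromosome 6 from 54210654 to 54229745) also spans DHDH, whose own row held 0 to 3 fragments a library, and counts 3806 bases where the RefSeq exons of BAX hold 833.

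BAK1, the effector that resides in the mitochondrial membrane, varied widely among the PEFs. The fibroblasts held 13.2 (PEF5), 6.94 (PEF7) and 24.2 FPKM (PEF8), and the piPSCs 15.6 (piPSC5), 11.9 (piPSC7) and 12 FPKM (piPSC8). The piPSC values lay inside the PEF range, and the spread among PEFs was larger than that among piPSCs. The mean was 14.8 ± 8.77 FPKM (SD, n = 3) in PEFs and 13.2 ± 2.08 FPKM in piPSCs, with a log2 difference of -0.01 (95% interval -0.99 to 0.97, limma adjusted p = 0.988). The sign turned with a pseudocount of 0.1 (0.0027) and without line 8 (0.46, limma adjusted p = 0.326), and a change close to 2-fold either way is inside the interval. The ratio of BAX to BAK1 was 0.788, 2.19 and 0.667 in PEF5, PEF7 and PEF8 and 1.38, 1.93 and 1.30 in piPSC5, piPSC7 and piPSC8. By FPKM, BAX was thus the higher effector in all 3 piPSC libraries and in 1 of 3 PEF libraries. Which effector is higher depends on the counted lengths, 3806 bases for BAX and 4441 for BAK1. Their RefSeq exons hold 833 and 2779 bases, and other lengths were not tested.

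Of the BH3-only genes, BID was upregulated. BID links death receptors to mitochondria, since caspase-8 cuts it into a form that activates BAX and BAK1. Levels were 7.69 (PEF5), 5.47 (PEF7) and 5.51 FPKM (PEF8) in fibroblasts and 14.1 (piPSC5), 16.8 (piPSC7) and 12.5 FPKM (piPSC8) in piPSCs. All 3 piPSC libraries lay above all PEF libraries, with means of 14.5 ± 2.2 FPKM (SD, n = 3) and 6.22 ± 1.27 FPKM, 2.32-fold higher. The log2 difference was 1.10 (SE 0.20, 95% interval 0.62 to 1.58, limma adjusted p = 0.00503), on 407 to 669 fragments in PEFs and 669 to 1035 in piPSCs. BID was the called member nearest to the 2-fold threshold. After each library was rescaled by its median ratio to the others, the difference was 0.85 (limma adjusted p = 0.0107) and no longer 2-fold, and without piPSC7 it was 0.99 (limma adjusted p = 0.0161).

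BBC3 encodes PUMA, a p53 target that binds all pro-survival proteins. The fibroblasts held 7.71 (PEF5), 15.5 (PEF7) and 11.8 FPKM (PEF8), and the piPSCs 16.8 (piPSC5), 15.6 (piPSC7) and 8.27 FPKM (piPSC8). The groups overlapped over most of their range, and each line went its own way, higher in line 5, level in line 7 and lower in line 8. The log2 difference was 0.19 (95% interval -0.62 to 1.01, limma adjusted p = 0.658), and it was -0.06 after median-ratio rescaling and 0.52 without line 8 (limma adjusted p = 0.283). The row (ENSSSCG00000003112) counts 582 bases, where the RefSeq exons hold 2198, so each value rests on 53 to 151 fragments.

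BCL2L11 encodes BIM, which activates BAX and BAK1 directly and is controlled by growth factors. The fibroblasts held 1.02 (PEF5), 0.648 (PEF7) and 2.41 FPKM (PEF8), and the piPSCs 4.16 (piPSC5), 6.59 (piPSC7) and 0.94 FPKM (piPSC8). piPSC5 and piPSC7 lay above all PEF libraries, and piPSC8 lay among them. The log2 difference was 0.91 (SE 0.55, 95% interval -0.39 to 2.22, limma adjusted p = 0.199). Without piPSC8 it was 1.48 (limma adjusted p = 0.026) and without both libraries of line 8 it was 1.78 (limma adjusted p = 0.0143), so the call on BCL2L11 turned on that line. The fragments behind it were few, 22 to 74 in PEFs and 21 to 159 in piPSCs.

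**Figure D2:**
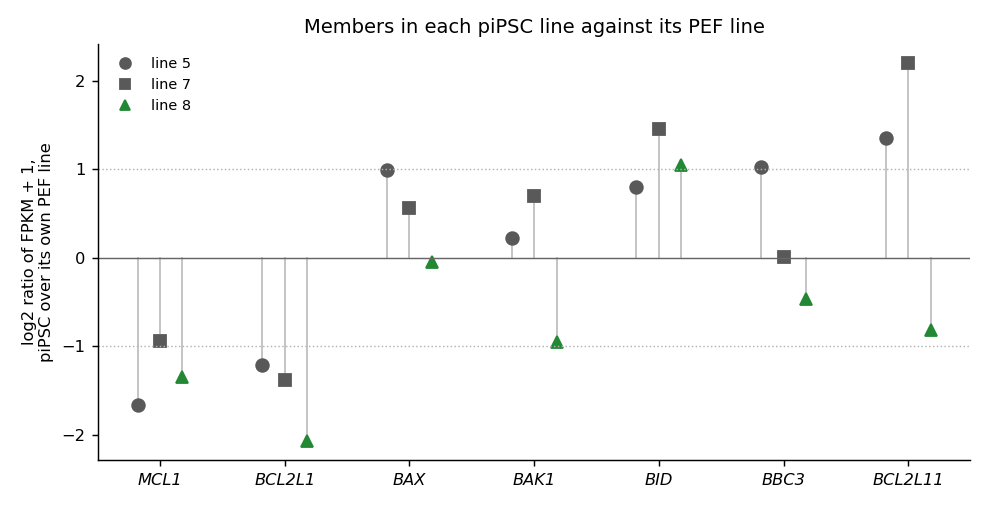
Log2 ratio of FPKM + 1 of each piPSC line over the PEF line it came from (vertical axis), for the 7 tested members (horizontal axis), with 1 point per line and dotted lines at a 2-fold change. MCL1 and BCL2L1 are below 0 and BID above 0 in all 3 lines, and BAX, BAK1, BBC3 and BCL2L11 are above 0 in lines 5 and 7 and below 0 in line 8.

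Set against its own PEF line, each piPSC line was lower for MCL1, by -1.66, -0.94 and -1.34 on the log2(FPKM + 1) scale in lines 5, 7 and 8. BCL2L1 was at -1.21, -1.38 and -2.07, and was the only member at least 2-fold lower in all 3 lines, a pattern that 11.9% of all genes tested had (24.7% in either direction). BID was higher in each line, at 0.80, 1.46 and 1.05, and no member was at least 2-fold higher in all 3 lines, as 12.8% of all genes were. The other 4 members differed in sign between lines, with BCL2L11 at 1.35 and 2.2 in lines 5 and 7 and -0.81 in line 8, and BAK1 at 0.23, 0.70 and -0.95. With the line as a block in limma, the same number of members was called, with BID at an adjusted p of 0.0145, MCL1 at 0.0086 and BCL2L1 at 0.0109.

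Summed over the role groups, the pro-survival level (MCL1, BCL2L1 and BCL2A1) was 94.0 (PEF5), 77.7 (PEF7) and 84.1 FPKM (PEF8) in fibroblasts and 29.1 (piPSC5), 38.5 (piPSC7) and 30.4 FPKM (piPSC8) in piPSCs. The effector sum (BAX and BAK1) was 23.5, 22.1 and 40.4 FPKM in the PEFs and 37.1, 34.9 and 27.7 FPKM in the piPSCs. The ratio of the first to the second was thus 3.99, 3.51 and 2.08 in PEF5, PEF7 and PEF8, and 0.785, 1.10 and 1.09 in piPSC5, piPSC7 and piPSC8. The PEF ratios were all above the piPSC ratios, which were near 1 at the counted lengths. On the log2 scale the mean ratio was 1.62 ± 0.50 (SD, n = 3) in PEFs and -0.03 ± 0.28 in piPSCs, a difference of -1.65, and it was -1.30 to -2.01 with 1 line left out. A ratio within a library does not depend on how libraries are scaled. It does depend on the counted length of each row, so values near 1 do not show equal levels. No p is given, since 3 lines against 3 cannot give an exact permutation p below 0.1.

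The ratio was largely that of 1 gene, as MCL1 made up 89.4% to 95.5% of the pro-survival sum. With the PABPN1 row, which spans BCL2L2, added to the pro-survival side, the difference shrank to -1.0, and with the KDSR row, which spans BCL2, it was -1.54. The BH3-only sum (BID, BBC3 and BCL2L11) was 16.4, 21.6 and 19.7 FPKM in the PEFs and 35.0, 39.0 and 21.7 FPKM in the piPSCs, where piPSC8 was level with PEF7. The ratio of MCL1 to BCL2L1 was 14.4, 9.63 and 8.47 in PEF5, PEF7 and PEF8 and 13.0, 16.5 and 21.4 in piPSC5, piPSC7 and piPSC8. FPKM divides by the counted length of each row, so levels set between genes move with those lengths. They are longer than the RefSeq exons for MCL1, BCL2L1, BCL2A1, BAX, BAK1 and BID, and shorter for BBC3 and BCL2L11. Counted and RefSeq lengths were 8165 and 3717 bases for BCL2L1, and 4441 and 2779 for BAK1. For BID they were 4877 and 2006, and for BCL2L11 2030 and 10125.

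**Figure D3:**
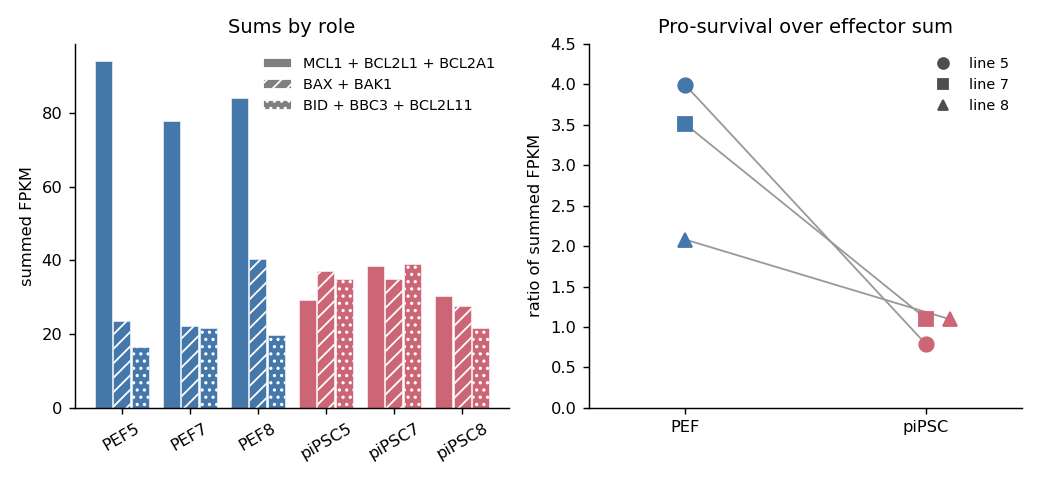
Left, summed FPKM of the pro-survival, effector and BH3-only members in each library, blue for PEF and red for piPSC. Right, the ratio of the pro-survival to the effector sum, with a line joining each PEF line to the piPSC line made from it, at 2.08 to 3.99 in PEFs and 0.785 to 1.10 in piPSCs.

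After MCL1, the order of FPKM values, which depends on the counted lengths, changed with the group. In piPSCs, BAX was next in all 3 libraries (15.7 to 23.0 FPKM) and BCL2L1 and BCL2L11 were the lowest members above the minimum. In PEFs, BAK1 was next in PEF5 and PEF8 and BBC3 in PEF7, and BCL2L11 was lowest above the minimum in all 3. In PEFs the ranges of BAX, BAK1 and BBC3 overlapped. Those of BAK1 and BBC3 also overlapped that of BCL2L1, and BID overlapped BAK1 and BCL2L1. In piPSCs the ranges of BAK1, BBC3 and BID overlapped, that of BAX overlapped BBC3 and BID, and BCL2L1 overlapped BCL2L11. Genes with overlapping ranges cannot be ranked beyond their spread. BID was below BAX in every library. BCL2L1 stood above BCL2L11 in all 3 PEF libraries but only in piPSC8 among the piPSCs.

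The rest of the BCL2 family was read from a list of 13 genes, of which 11 were listed and 9 tested. In this list 5 genes were called lower and 0 higher, beside 16.7% and 20.2% over all genes, and its median log2 difference was -1.34 beside 0.20. By the adjusted p alone, with no fold threshold, 1 was higher and 5 lower, beside 30.3% and 21.5% of all genes. The called counts were the same with quantile normalization and with both rescalings, and 4 were called lower without line 8. Over all 12428 genes, 2070 were called lower in the main fit and 2074 with quantile normalization. The rescalings gave 2517 (median ratio) and 2815 (sum of 1000000), and the fit without line 8 gave 1893. The gene higher by the adjusted p alone was BCL2L12, whose limma adjusted p was 0.139 and 0.136 under the rescalings. Of these 5, BNIP3 and BNIP3L are receptors for the removal of mitochondria by autophagy, and the other three belong to the death machinery proper.

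BNIP3L was at 67.2, 66.0 and 67.8 FPKM in PEF5, PEF7 and PEF8 and at 8.35, 10.1 and 4.13 FPKM in piPSC5, piPSC7 and piPSC8. BNIP3 was at 384, 215 and 288 FPKM and at 54.6, 56.1 and 53.7 FPKM. Both were far apart between groups, with log2 differences of -3.07 (SE 0.29) and -2.37 (SE 0.22) and limma adjusted p-values of 0.000543 and 0.000521. PMAIP1, which encodes NOXA, a BH3-only protein that binds MCL1, was at 23.9, 23.1 and 33.4 FPKM in PEFs and 6.59, 6.11 and 10.6 FPKM in piPSCs (log2 difference -1.68, SE 0.25, limma adjusted p = 0.00251). NOXA and its partner MCL1 were thus both lower in every piPSC library than in any PEF library.

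BAD, a BH3-only protein that binds BCL-XL, was at 25.1, 29.6 and 28.4 FPKM in PEFs and 11.7, 17.7 and 10.0 FPKM in piPSCs. Its log2 difference was -1.05 (SE 0.23, limma adjusted p = 0.00909), close to the threshold, and it fell short of 2-fold without piPSC5 (-0.99) or without piPSC8 (-0.89), and failed the test without line 8 (limma adjusted p = 0.0534). BOK, an effector related to BAX and BAK1, had 301, 184 and 98 fragments in PEF5, PEF7 and PEF8 and 4, 3 and 0 in piPSC5, piPSC7 and piPSC8. It was near the floor of detection in all piPSC libraries, and its log2 difference of -1.51 (SE 0.29, limma adjusted p = 0.00558) understates the change of so low a gene. BOK at 1.15 to 2.99 FPKM was a minor part of the effector level in PEFs, and with it added the log2 difference of the pro-survival to effector ratio was -1.54.

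The other 4 tested genes of this list were not called. HRK, a BH3-only protein best known from neurons, had 1, 9 and 21 fragments in the PEFs and 0, 0 and 1 in the piPSCs (log2 difference -1.34, limma adjusted p = 0.0896). Without PEF5 it was called (-1.94, limma adjusted p = 0.0144), and without PEF8 it was -0.78 (limma adjusted p = 0.186). The row of HRK counts 276 bases, where the RefSeq exons hold 5235, and lies within the gene FBXW8 on the other strand. Reads of that overlap cannot be assigned. BMF, a BH3-only protein, was at 0.909 to 2.15 FPKM in PEFs and 0.665 to 2.1 FPKM in piPSCs, with a 95% interval of -0.85 to 0.77. BCL2L12 was at 9.68 to 14.3 FPKM in PEFs and 18.3 to 19.3 FPKM in piPSCs (log2 difference 0.67, limma adjusted p = 0.0212), apart but under 2-fold. BCL2L13 was at 22.9 to 34.6 FPKM and 33.9 to 37.6 FPKM (95% interval -0.08 to 0.80).

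**Figure D4:**
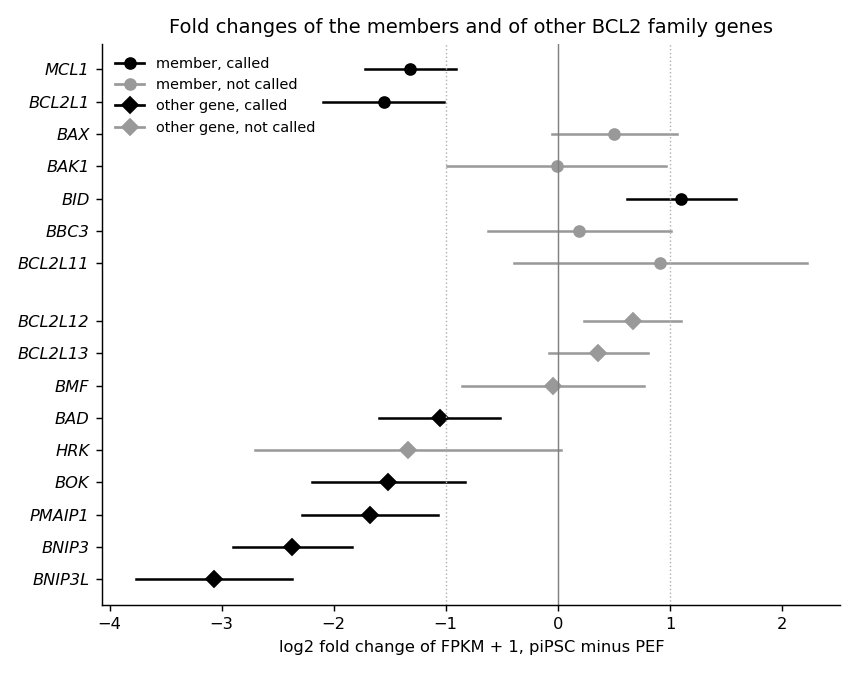
Log2 fold change of FPKM + 1, piPSC minus PEF (horizontal axis), with limma's 95% interval, for the 7 tested members (circles) and 9 other BCL2 family genes (diamonds). Black marks genes called, grey those not called, and dotted lines a 2-fold change; among the members BID lies to the right and MCL1 and BCL2L1 to the left, and all 5 called genes of the other family genes lie to the left.

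Downstream of the pore, all 15 genes of the apoptosome and caspase list were tested, with 2 called higher and 2 lower, where 20.2% and 16.7% of all genes were, and a median log2 difference of 0.09 beside 0.20. That count is no excess over all genes. CYCS, the cytochrome c that BAX and BAK1 release, was at 137, 79.1 and 95.1 FPKM in PEFs and 225, 236 and 275 FPKM in piPSCs (log2 difference 1.27, SE 0.23, limma adjusted p = 0.00453), and 0.995 after median-ratio rescaling. DFFB, the nuclease that caspases free to cut DNA, was at 1.57 to 1.97 FPKM and 5.16 to 6.78 FPKM (log2 difference 1.34, limma adjusted p = 0.00226). CASP8, the initiator caspase that cuts BID, was at 5.66, 3.30 and 7.10 FPKM in PEFs and 0.914, 1.26 and 1.86 FPKM in piPSCs (log2 difference -1.41, SE 0.30, limma adjusted p = 0.00924). CASP10, a related initiator, was at 2.30 to 5.02 FPKM and 0.236 to 1.01 FPKM (log2 difference -1.46, limma adjusted p = 0.00917). The level of BID was thus higher in every piPSC library, and that of CASP8 lower.

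The death receptor list had 7 of 10 genes tested, with 3 called lower and 0 higher, beside 16.7% and 20.2% of all genes, and a median log2 difference of -0.76 beside 0.20. TNFRSF1A, a receptor for tumour necrosis factor, was at 8.05 to 10.7 FPKM in PEFs and 0.607 to 2.77 FPKM in piPSCs (log2 difference -2.03, limma adjusted p = 0.00341). CFLAR, which encodes FLIP, an inhibitor of caspase-8, was at 9.25 to 13.2 FPKM and 2.03 to 2.92 FPKM (log2 difference -1.71, limma adjusted p = 0.00129). TRADD, an adaptor of that receptor, was at 8.83 to 10.1 FPKM and 3.40 to 4.38 FPKM (log2 difference -1.09, limma adjusted p = 0.00292). The end of the CFLAR row overlaps CASP10 on the same strand, and how the authors counted shared reads is not given in the sources used here. With either rescaling of the libraries, 4 genes of this list were called lower. Over all 12428 genes, those called lower rose from 2070 to 2517 (median ratio) and 2815 (sum of 1000000).

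Among the inhibitors of apoptosis, 4 of 6 genes were tested, with 1 called in each direction, beside 20.2% higher and 16.7% lower over all genes. BIRC5, which encodes survivin, a protein of both mitosis and caspase inhibition, was at 13.0, 3.19 and 4.35 FPKM in PEFs and 48.6, 71.6 and 51.1 FPKM in piPSCs (log2 difference 3.08, SE 0.45, limma adjusted p = 0.00228). BIRC3, a ubiquitin ligase of receptor signalling, was at 29.1, 30.5 and 22.7 FPKM in PEFs and 5.44, 6.09 and 5.62 FPKM in piPSCs (log2 difference -2.07, SE 0.17, limma adjusted p = 0.000391). Its row also spans a RefSeq gene described as BIRC2, so they cannot be told apart there.

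Of 14 upstream regulators, all tested, 2 were called higher and 0 lower, no excess over the 20.2% and 16.7% of all genes, and the median log2 difference was 0.32 beside 0.20. FBXW7, the ubiquitin ligase subunit that marks MCL1 for degradation, was at 3.81, 2.25 and 4.07 FPKM in PEFs and 11.3, 11.8 and 8.78 FPKM in piPSCs (log2 difference 1.43, SE 0.24, limma adjusted p = 0.00368). VDAC2, the mitochondrial channel that BAK1 and BAX bind, was at 89.3, 80.1 and 73.6 FPKM and 236, 278 and 292 FPKM (log2 difference 1.72, SE 0.15, limma adjusted p = 0.000449). Over the 5 lists, 49 genes were tested, 5 called higher and 11 lower. After median-ratio rescaling the median of all genes went from 0.20 to -0.01, the split over all genes turned from 2505 higher and 2070 lower to 1869 and 2517, and that over the lists to 4 and 13. All 10 fibroblast markers were lower between the same libraries as MCL1, BCL2L1 and the lower genes of these lists, and their part in these results was not tested.

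**Figure D5:**
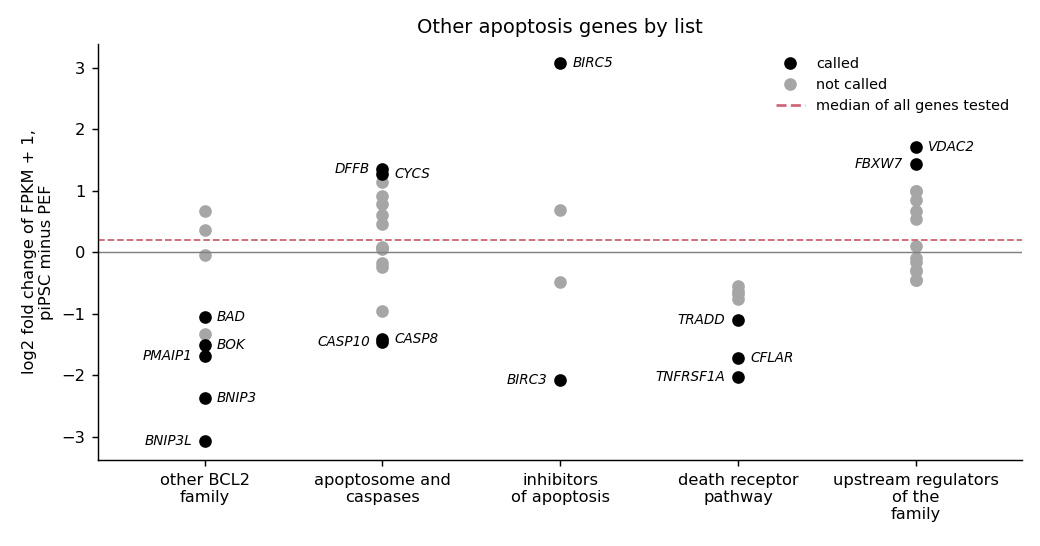
Log2 fold change of FPKM + 1, piPSC minus PEF (vertical axis), of the 49 tested genes of 5 apoptosis lists (horizontal axis), 1 point per gene, black and named where called. The dashed line is the median of all genes tested, 0.20; the called genes of the other BCL2 family and of the death receptor list lie below 0.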

How the data were processed

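Poly-A libraries of 3 PEF lines and of their 3 derived piPSC lines were read from paired ends (150 bp). The authors deposited FPKM values per gene, and the submitters' processing notes name HISAT2 2.1.0, Bowtie2 2.2.3, HTSeq 0.6.0 and Sscrofa11.1 with no roles. The annotation release and the handling of shared reads are not given in the sources used here. For 18007 of 18007 genes, a length was found at which every FPKM value was a whole number of fragments, to within 1e-06 fragments plus the rounding of the file, and the shortest such length was used. Tested on simulated data, the step returned the exact fragments of 289 of 295 genes. Floors of 3 fragments cover counting error only, and the 95% intervals are limma's over the lines.

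R 4.3.3 and limma 3.58.1 were used to compare the groups on log2(FPKM + 1), by a linear model with a mean-variance trend and no pairing. The study names an unpaired test in its general statistics, and compared expression between each piPSC line and its own PEF line. The 12428 genes whose mean reached 0.5 FPKM entered, and two-sided p-values were adjusted over all of them by Benjamini-Hochberg. Fold changes on this scale understate those of low genes. A call needed an adjusted p below 0.05 together with a 2-fold change. Tested on simulated data, 12428 genes in the PEF against piPSC comparison, the fit called 85 of 94 genes changed 4-fold and 23 of 106 changed 2-fold. Each piPSC line came from the PEF line of its number, so a fit with the line as a block was an alternative. Between deviations from the group means, r was 0.0921, 0.0946 and 0.08 for libraries of the same number. For libraries of unlike number it ran from -0.121 to 0.0553, and all of these values were small. Other alternatives were a pseudocount of 0.1, other filters and scalings, no trend, voom on the fragments and each library left out. Leaving out line 8 and adding the KDSR row to the pro-survival sum were chosen after seeing the data.

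The members and lists were chosen with earlier results of these data known. Named genes were all members, the called genes of each list (at most the 4 with the largest change), every tested gene of the other BCL2 family list, and COL1A2, THY1, SOX2 and LIN28B. The rows KDSR, PABPN1, ENSA, DHDH and ID1, which overlap members or a family gene, were chosen after their values were seen. Scripts used Python 3.11.15, numpy 2.4.6, pandas 2.3.3 and Biopython 1.88, and sequences came from RefSeq on Sscrofa11.1. A stretch of sequence and a result on a gene of the lists are not reported here.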

Additional observations from a re-analysis of the deposited data

Results flagged for a closer look

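In 4 tested members, lines moved in opposite directions between PEF and piPSC, and each line is a single library, so the difference between lines was not tested. The range of the log2 ratios over the 3 lines was 3.01 for BCL2L11, 1.65 for BAK1, 1.5 for BBC3 and 1.03 for BAX, and in each of them line 8 was below 0 and lines 5 and 7 above. For BAX the ratio of line 8 was only -0.04, and for BBC3 that of line 7 only 0.01.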

How the results depend on the processing

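Over 31 named genes and 495 alternative values of their log2 differences, 462 kept their direction and side of the threshold, 11 gained a call, 8 lost one and 14 changed sign. MCL1 and BCL2L1 were called under all 16 alternatives (-1.65 to -1.23 and -2.08 to -1.29). Changes of sign were limited to 3 uncalled genes. BAK1 turned to 0.0027 with a pseudocount of 0.1 and 0.023 with voom on fragments, and ran from -0.43 to 0.41 with 1 library left out (0.46 without line 8). BBC3 turned to -0.0644 with median-ratio rescaling and -0.113 with a sum of 1000000, and ran from -0.0559 to 0.49 with 1 library left out. BMF turned to 0.0385 with quantile normalization and ran from -0.25 to 0.24 with 1 library left out (0.39 without line 8). The cause was not tested. Members called numbered 3, but 2 after either rescaling or without piPSC7, each time without BID, and 4 without piPSC8 or line 8, with BCL2L11. Over all genes, 4575 were called in the main fit, 4386 after median-ratio rescaling and 4801 after rescaling to a sum of 1000000. Without piPSC7, piPSC8 or line 8 the number over all genes was 4639, 4515 or 4260. Members at least 2-fold changed the same way in all lines numbered 1, but 2 under either rescaling, 0 at a 4-fold threshold and 2 whichever line was left out. With the PABPN1 row, the log2 ratio of pro-survival to effector sums differed by -1.0. The replicate block by line left 3 members and 16 list genes called, as without it. SOX2 had no value at a mean of at least 1 FPKM. Depth limits BCL2A1, BOK, HRK and BCL2L11, which rest on few fragments.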
